A study of Eragrostis tef with 16 samples.

Results

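The effect of low calcium on the reads of 5824 genes was compared between root and shoot of tef (Eragrostis tef), an allotetraploid cereal in which many genes exist as an A copy and a B copy from its pair of subgenomes. The genes are all those of the deposited gene table that carried values, 5824 of 11458 listed IDs, and the choice used no measured value beyond that. For each gene the response of a tissue is its log2 value under low calcium minus that under optimum calcium, and the difference is the response of root minus the response of shoot. A negative difference therefore marks a response that was more positive in shoot, and a positive one a response that was more positive in root.

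Roots and shoots came from hydroponic culture, and 4 libraries each were available of low-calcium root, optimum-calcium root, low-calcium shoot and optimum-calcium shoot. The series set out to study miRNAs under long calcium deficiency, and the gene table heads its genes as target gene IDs without saying of what. Whether its reads come from mRNA or from small RNA is not given in the sources used here, so a level below means these reads, as log2 of scaled reads plus 1. Calcium concentrations, plant age and cultivar are not given either, nor whether the 4 libraries of a group came from separate plants, so p-values measure only the spread between libraries, which may be technical.

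Plants take up calcium through the root and move it to the shoot with the transpiration stream, and it is hardly moved again once deposited in leaves. Calcium ions cross-link pectin in the cell wall, are stored in the vacuole through exchangers and pumps, and act as a signal that is read by calmodulins, calmodulin-like proteins and calcium-dependent protein kinases. Young leaves and growing tips are the places where a shortage of calcium is known to show first.

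Single libraries are written LR1 to LR4 (low-calcium root), OR1 to OR4 (optimum-calcium root), LS1 to LS4 (low-calcium shoot) and OS1 to OS4 (optimum-calcium shoot). They held 1.20 to 2.02 megareads on these genes in low-calcium root, 2.32 to 3.44 in optimum-calcium root, 1.82 to 2.10 in low-calcium shoot and 2.63 to 2.85 in optimum-calcium shoot. Both low-calcium groups were thus read less deeply than their controls. Numbers in the headers run through the low-calcium libraries first, so an effect of that order cannot be told apart from calcium. Of 10 shoot markers, among them chlorophyll a-b binding proteins and Rubisco activase, 9 had the higher mean in shoot, the exception being a pyruvate phosphate dikinase gene (Et_4B_037143). All 6 root markers, nicotianamine synthases and the metal transporter YSL16, had the higher mean in root, and no gene was described as a Casparian strip or a high-affinity nitrate protein. The log2 of the summed root markers was 12.65 to 15.40 in low-calcium root and 14.46 to 16.01 in optimum-calcium root. It was 11.37 to 12.14 in low-calcium shoot and 11.42 to 12.61 in optimum-calcium shoot, a range no higher under low calcium. The shoot sum rested mainly on nicotianamine synthase 3 and the YSL16 gene Et_7B_055075 (9.96 to 10.86 in low-calcium shoot). It therefore does not measure root tissue in the shoot libraries. The log2 of the summed shoot markers was 10.94 to 11.13 in low-calcium root and 10.07 to 11.25 in optimum-calcium root. In shoot libraries that sum was 17.23 to 18.15 under low and 17.79 to 18.41 under optimum calcium. In root, Et_2B_022256 and Et_6B_049196 were higher under low calcium without overlap, and the other shoot markers overlapped. Whether shoot reads add to root values of genes read mainly in shoot was not tested. In tissue samples, fewer cells of a type and less RNA per cell cannot be told apart.

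The responses of root and shoot differed for 431 of 5824 genes (7.4%) by limma with Benjamini-Hochberg adjustment over all genes at a threshold of 0.05. Of these, 106 (1.82% of all genes) responded more positively in root and 325 (5.58%) more positively in shoot. Those in favour of root had a median of 1.43 on the log2 scale, and those in favour of shoot, the larger ones, a median of -2.25. Differences of at least 3 in size numbered 2 in favour of root and 82 in favour of shoot. Over all genes the median difference was 0.07 and the median SE 0.32, and 1319 genes had an unadjusted p under 0.05.

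Most of the differences came from 1 tissue moving while the other did not pass its own test. In root alone, 485 genes passed (8.33%), 310 higher (5.32%) and 175 lower (3.0%) under low calcium, while 2292 passed in shoot (39.4%), 1075 higher (18.5%) and 1217 lower (20.9%). The balance in shoot hung on the scaling: 46.9% of its calls were higher on the deposited scale, against 59.4% under median-ratio size factors, where 1214 genes were higher and 830 lower. Division by library totals gave 72.9%, from 1278 genes higher and 476 lower. The median shoot response moved by 0.12 under the size factors and by 0.19 under library totals. In root the share of higher calls was 63.9%, and 74.2% with median-ratio size factors. The 1217 lower in shoot became 715 without LS4. The 485 of root became 99 without LR1, 88 without LR2, 66 without LR4, 167 without OR1, 136 without OR2, 816 without OR3 and 109 without OR4. Among the 325 genes with the more positive response in shoot, 282 rose in shoot and did not pass in root, 13 rose in both tissues, 14 fell in root and did not pass in shoot, and 10 fell in root and rose in shoot. Among the 106 genes with the more positive response in root, 45 rose in root and did not pass in shoot, 41 fell in shoot and did not pass in root, and 6 rose in root and fell in shoot. The remaining 6 and 14 genes passed in neither tissue alone. Opposite calls in the tissues were thus made for 16 genes (0.275%).

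**Figure D1:**
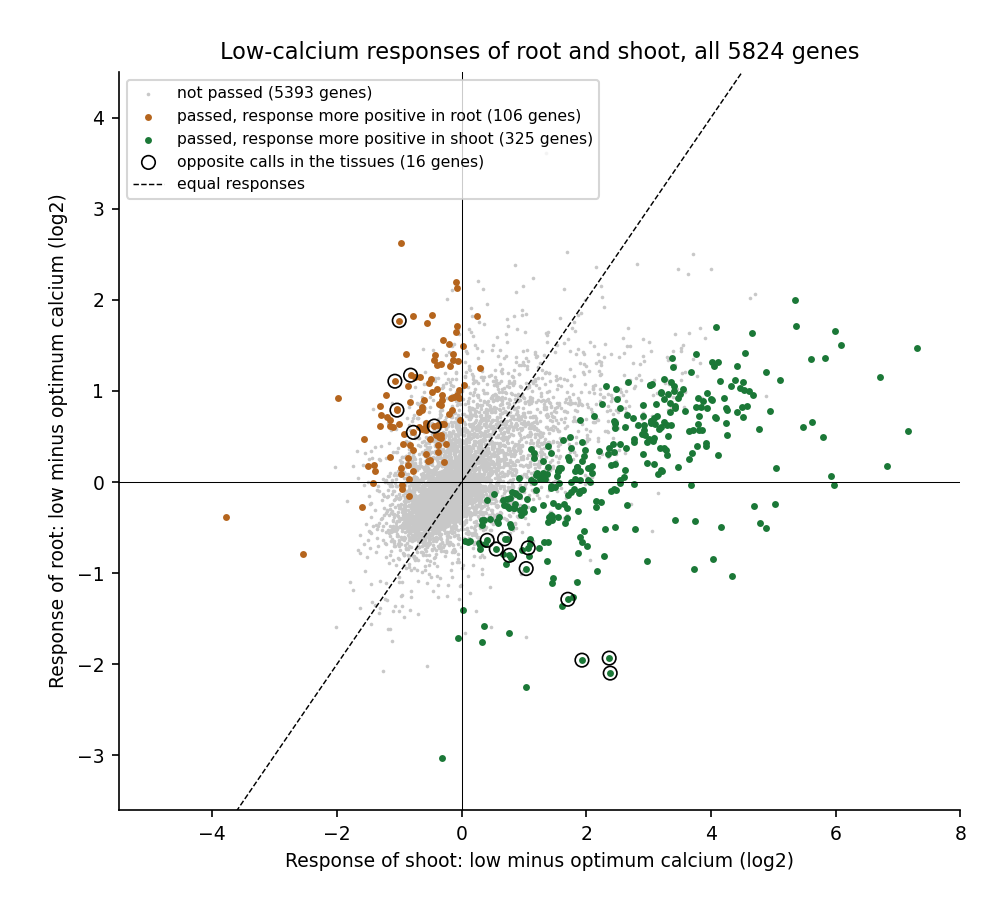
Low-calcium response of each gene in root (y axis) and in shoot (x axis), both as log2 low minus optimum calcium, for all 5824 genes; colour marks the genes whose responses differed, rings the genes with opposite calls, and the dashed line equal responses. The 325 genes with the more positive response in shoot spread far to the right at root responses near 0, while the 106 genes with the more positive response in root have smaller differences, with a median of 1.43.

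How many genes passed depended on single libraries. The 431 became 276 without LR2, 261 without LR4, 268 without OR1, 704 without LS3 and 271 without LS4. The 106 in favour of root became 64 without LR1, 45 without LR2, 49 without LR4, 57 without OR1, 69 without OR2, 255 without LS3 and 45 without LS4. They became 54 without OS1, 67 without OS2, 62 without OS3 and 219 without OS4. The 325 in favour of shoot became 212 without LR4 and 211 without OR1, and moved by less than 1.5 times when any other library was left out. Among the 431 were 274 of the 276, 256 of the 261, 266 of the 268, 266 of the 271 and 422 of the 704. Other omissions brought in more genes: without OR3, for instance, 423 passed, of which 356 were among the 431, and of the 391 that passed in libraries thinned to equal size 335 were. A core of 150 genes (2.58%), 19 in favour of root and 131 in favour of shoot, passed in the same direction under each of the 25 alternatives that gave it a value. The alternatives were other scalings, offsets, filters and limma settings, the replicate number as a term, voom (limma on the recovered reads with weights from their own spread), reads thinned to the smallest library, and each library left out in turn.

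Genes tied to low oxygen and fermentation held the largest share of differences among the 24 lists examined, which hold genes by words in their deposited descriptions. Of 9 such genes 6 passed, 66.67% against 7.4% of all genes, and all 6 in favour of shoot. The list median was -1.97 against 0.07 over all genes. The count stayed at 5 or 6 when any 1 library was left out and was 5 with voom. The 6 were alcohol dehydrogenase 2, both copies of sucrose synthase 2, a non-symbiotic hemoglobin and both copies of plant cysteine oxidase 2. Copies with similar sequence can share reads, so the 6 need not be separate results. The words of the lists were chosen with earlier results of these data known. The shares of the lists and their order are therefore descriptions, and no list was tested.

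Alcohol dehydrogenase 2 (Et_6A_047661), the enzyme of the last step of ethanol fermentation, had log2 values of 10.20, 10.26, 10.67 and 10.62 in low-calcium root and 12.68, 12.12, 11.93 and 12.77 in optimum-calcium root. Its shoot values were 9.04, 9.76, 9.35 and 10.27 under low calcium and 6.84, 7.33, 7.34 and 7.42 under optimum calcium. All low-calcium roots lay below all optimum-calcium roots, and all low-calcium shoots above all optimum-calcium shoots. It fell by 1.93 in root (limma adjusted p 0.000939) and rose by 2.37 in shoot (limma adjusted p 6.19e-06), a difference of -4.30 with a 95% interval of -5.05 to -3.55. Under low calcium its means were 10.44 ± 0.24 in root and 9.60 ± 0.53 in shoot (SD, n = 4 each).

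The non-symbiotic hemoglobin (Et_1A_007077), of a family that removes nitric oxide when oxygen is short, showed the same opposition. Root values were 7.75, 7.71, 6.98 and 7.79 under low calcium and 9.0, 8.74, 10.85 and 10.03 under optimum calcium. In shoot they were 4.83, 7.91, 7.47 and 7.36 under low calcium and 3.29, 4.94, 4.41 and 5.39 under optimum calcium. The root groups did not overlap, whereas LS1 lay among the optimum-calcium shoots and the other 3 above them. Responses were -2.10 (SE 0.61) in root and 2.38 (SE 0.61) in shoot, which both passed (limma adjusted p 0.0448 and 0.00692), and the difference was -4.48 (SE 0.86, 95% interval -6.31 to -2.66, limma adjusted p 0.00523).

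Sucrose synthase 2, which splits sucrose into fructose and UDP-glucose, differed in both copies. The A copy (Et_4A_032822) had 11.27, 11.38, 11.17 and 11.34 in low-calcium root and 12.07, 11.49, 13.20 and 11.78 in optimum-calcium root. It had 11.42, 10.54, 8.58 and 12.19 in low-calcium shoot and 6.39, 6.68, 7.01 and 6.53 in optimum-calcium shoot. The shoot groups stood apart, with LS3 the lowest of its group, and the root groups stood apart the other way by a narrow gap. Its difference was -4.87 (SE 0.77, 95% interval -6.50 to -3.24, limma adjusted p 0.00157), carried by the shoot response of 4.03, since the root response of -0.84 did not pass (limma adjusted p 0.312). The B copy (Et_4B_037022) had a difference of -2.72 (SE 0.53, limma adjusted p 0.00555).

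Plant cysteine oxidases, which in Arabidopsis mark ethylene response factors for breakdown while oxygen is present, gave smaller differences. The A copy of plant cysteine oxidase 2 (Et_10A_000569) ranged from 8.14 to 8.78 in low-calcium root, 8.54 to 10.10 in optimum-calcium root, 6.81 to 8.10 in low-calcium shoot and 5.66 to 6.54 in optimum-calcium shoot. It rose in shoot, and its difference was -1.97 (SE 0.44, limma adjusted p 0.0123). The B copy (Et_10B_002726) had a difference of -1.63 (SE 0.45, limma adjusted p 0.0367), which did not pass with voom (adjusted p 0.0722) or without any 1 of LR2, LR3, LR4, OR1, OR2, OR4, LS2, LS4, OS1 and OS2 (adjusted p 0.055 to 0.0781). The other 3 genes of the list, both copies of alcohol dehydrogenase-like 6 (Et_1A_008504, 0.09, and Et_1B_013326, 0.12) and alanine aminotransferase 2 (Et_5B_044565, 0.53), did not pass. The first 2 of these turned to -0.11 and -0.08 with scaling by the total. Both cysteine oxidases and these 3 genes were chosen after their values were seen.

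**Figure D2:**
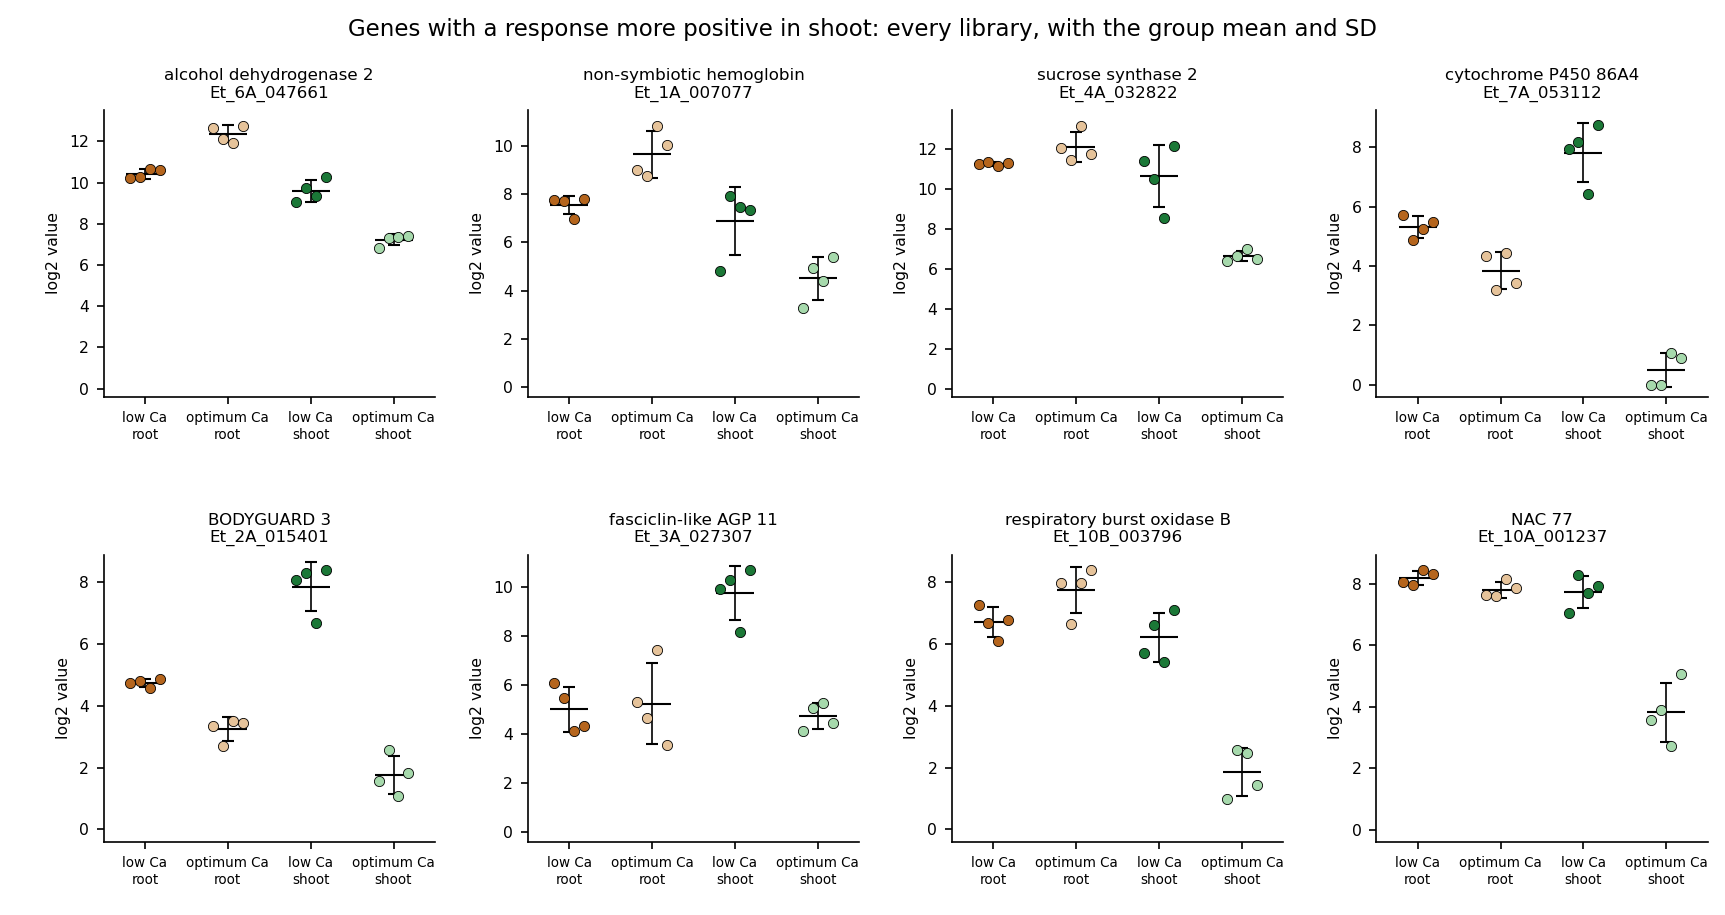
Log2 values (y axis) of 8 genes with the more positive response in shoot in every library, by group; points are libraries, bars the group mean with its SD (n = 4). Alcohol dehydrogenase 2 and the hemoglobin are lower in low-calcium than in optimum-calcium root and higher in low-calcium than in optimum-calcium shoot, while the other 6 genes differ mainly between low-calcium and optimum-calcium shoot.

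Genes of the cuticle, the layer of cutin and wax that covers the shoot surface, and of suberin, its counterpart in root tissues, included the most negative difference of all genes. Of 42 genes 10 passed, 23.81% against 7.4% of all genes. All 10 were in favour of shoot (8 to 14 when any 1 library was left out, 4 with voom). The list median was -0.32 against 0.07 over all genes. In root 7 members rose and 1 fell, where 5.32% of all genes rose and 3.0% fell. In shoot 17 rose and 6 fell, where 18.5% of all genes rose and 20.9% fell. With scaling by the total 20 rose and 2 fell in shoot.

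Cytochrome P450 86A4, of a family that puts hydroxyl groups on the end of fatty acids for cutin and suberin in Arabidopsis, differed in both copies. In the A copy (Et_7A_053112) the root values were 5.70, 4.86, 5.23 and 5.48 under low calcium and 4.33, 3.19, 4.44 and 3.44 under optimum calcium. Shoot values were 7.92, 8.18, 6.41 and 8.73 under low calcium and 0.00, 0.00, 1.09 and 0.89 under optimum calcium. The 4 optimum-calcium shoot libraries held 0, 0, 1 and 1 reads of it, against 220, 217, 69 and 381 in low-calcium shoot. In shoot it was thus close to undetected without the shortage, while optimum-calcium root held 25, 15, 30 and 12 reads. Its root response of 1.47 did not pass (limma adjusted p 0.0639). Its difference was -5.84 (SE 0.66, 95% interval -7.25 to -4.44, limma adjusted p 0.000216), the size of which depends on the offset of the log scale and became -7.87 with 0.1 in place of 1. For the B copy (Et_7B_055862) the difference was -5.56 (SE 0.73, limma adjusted p 0.000468), and it did not pass with voom (adjusted p 0.06).

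BODYGUARD 3, a hydrolase of a family needed for an intact cuticle in Arabidopsis, rose in both tissues and more so in shoot. The A copy (Et_2A_015401) had 4.73, 4.81, 4.57 and 4.85 in low-calcium root and 3.35, 2.68, 3.5 and 3.44 in optimum-calcium root. Shoot libraries gave 8.05, 8.30, 6.67 and 8.37 under low calcium and 1.56, 2.57, 1.09 and 1.83 under optimum calcium. Neither tissue showed overlap between the calcium levels. Responses were 1.5 (SE 0.40) in root and 6.09 (SE 0.40) in shoot (limma adjusted p 0.0332 and 9.83e-08), and the difference was -4.59 (SE 0.56, 95% interval -5.77 to -3.40, limma adjusted p 0.000379). The B copy (Et_2B_019607) gave -4.33 (SE 0.55, limma adjusted p 0.000444), with an adjusted p of 0.0738 under voom.

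Further genes of cutin and wax rose in shoot and did not pass in root. Long chain acyl-CoA synthetase 2 (Et_6B_048779), which activates fatty acids for cutin in Arabidopsis, held 1, 0, 1 and 1 reads in low-calcium root, 0, 1, 2 and 1 in optimum-calcium root, 226, 97, 54 and 290 in low-calcium shoot and 0, 1, 1 and 0 in optimum-calcium shoot. It was read almost only in low-calcium shoot, with a difference of -6.64 (SE 0.88, limma adjusted p 0.000468) that became -8.55 with an offset of 0.1 and did not pass with voom (adjusted p 0.0588). ECERIFERUM 3 (Et_2A_017041), of the enzyme pair that makes wax alkanes in Arabidopsis, ranged from 7.29 to 8.32 in low-calcium shoot and 1.97 to 3.70 in optimum-calcium shoot, at a difference of -5.39 (SE 0.69, limma adjusted p 0.000444).

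Within the list the smallest p belonged to WSD1 (Et_4B_036831), a wax ester synthase. It gave 5.65, 5.78, 5.94 and 5.61 in low-calcium root and 6.09, 6.33, 6.21 and 6.76 in optimum-calcium root. Shoot values were 8.96, 9.05, 9.07 and 8.48 under low calcium and 6.84, 6.97, 6.80 and 7.37 under optimum calcium. All low-calcium shoots were above all optimum-calcium shoots and all low-calcium roots below all optimum-calcium roots. The root response of -0.60 did not pass by itself (limma adjusted p 0.0542), and the difference was -2.49 (SE 0.26, 95% interval -3.05 to -1.94, limma adjusted p 0.000144). Glycerol-3-phosphate 2-O-acyltransferase 6 (Et_1B_011034), which makes cutin precursors in Arabidopsis, was chosen after its values were seen and gave -3.28 (SE 0.76, limma adjusted p 0.0157), with an adjusted p of 0.0949 under voom. Group 3 late embryogenesis abundant protein, a desiccation protein outside this list, had differences of -6.60 (A copy, Et_4A_034454) and -5.24 (B copy, Et_4B_038582), and neither copy passed with voom (adjusted p 0.11 and 0.209).

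Genes of the cell wall make, loosen and cross-link its polysaccharides. Of 101 such genes 2 passed in favour of root and 23 in favour of shoot, together 24.75% against 7.4% of all genes, with a list median of -0.72 against 0.07 over all genes. The 23 ranged between 16 and 29 when any 1 library was left out and became 12 with voom. In root 6 of the 101 members rose and 3 fell, shares near those of all genes (5.32% and 3.0%). In shoot 53 rose and 3 fell, where 18.5% of all genes rose and 20.9% fell.

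Fasciclin-like arabinogalactan protein 11 (Et_3A_027307), a protein of secondary walls in Arabidopsis stems, had 6.07, 5.48, 4.12 and 4.32 in low-calcium root and 5.32, 4.67, 7.43 and 3.54 in optimum-calcium root. Its shoot values were 9.93, 10.27, 8.16 and 10.67 under low calcium and 4.13, 5.07, 5.26 and 4.43 under optimum calcium. Low-calcium shoots lay above every library of the other 3 groups, and the root groups overlapped. The difference was -5.28 (SE 0.99, 95% interval -7.37 to -3.18, limma adjusted p 0.00419). The B copy (Et_3B_031645) gave -4.96 (SE 1.01, limma adjusted p 0.00754) and an adjusted p of 0.0611 with voom.

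Expansins, which loosen walls during growth, gave differences of -3.81 and -3.75 for the B and A copies of expansin-B4 (Et_1B_011615 and Et_1A_006758), -3.69 for expansin-B7 (Et_4A_033199) and -3.43 for expansin-A5 (Et_1A_009302). Expansin-B4 of the B subgenome ranged from 7.35 to 8.53 in low-calcium root, 6.12 to 8.33 in optimum-calcium root, 7.31 to 9.26 in low-calcium shoot and 3.12 to 4.51 in optimum-calcium shoot. None of these 4 passed with voom (adjusted p 0.0678 to 0.198). Expansin-B7, expansin-A5 and the further wall genes of this paragraph were chosen after their values were seen. A xyloglucan endotransglucosylase (Et_1A_004770), which cuts and rejoins xyloglucan, gave -3.48 (SE 0.49, limma adjusted p 0.000751), and a mannan synthase 9 gene (Et_2B_021134) -3.40 (SE 0.79, limma adjusted p 0.0156). The pectin methyltransferase QUA2, needed for homogalacturonan in Arabidopsis, differed in both copies, by -2.65 (SE 0.49, limma adjusted p 0.00399) in Et_1B_012225 and by -2.49 (SE 0.47, limma adjusted p 0.00419) in Et_1A_007274. Both rose in shoot, and their root responses of -0.78 and -0.54 did not pass.

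A pair of genes with the same description, glucan endo-1,3-beta-glucosidase 3, went opposite ways. Enzymes of this kind cut beta-1,3-glucans such as callose. Et_5A_042288 had 4.53, 4.86, 5.04 and 5.65 in low-calcium root and 3.45, 3.01, 3.21 and 3.32 in optimum-calcium root. In shoot it gave 7.51, 7.42, 7.05 and 6.19 under low calcium and 8.28, 8.46, 7.96 and 7.47 under optimum calcium. All low-calcium roots were higher than all optimum-calcium roots, and in shoot 1 low-calcium library reached the optimum-calcium range. It rose by 1.77 in root (limma adjusted p 0.00606) and fell by 1.00 in shoot (limma adjusted p 0.0178), a difference of 2.77 (SE 0.43, 95% interval 1.85 to 3.69, limma adjusted p 0.00157). Et_5A_042282, chosen after its values were seen, instead rose in shoot, at 8.90 to 10.21 under low calcium against 5.73 to 7.61 under optimum calcium, with a difference of -2.19 (SE 0.47, limma adjusted p 0.0106).

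Laccases and peroxidases, which couple lignin precursors and cross-link wall proteins, had the most negative median of the larger lists, -1.45. Of 48 genes 12 rose in root and 37 rose in shoot by limma, and none passed as lower in either tissue, where 5.32% of all genes rose in root and 18.5% in shoot. The difference passed for 1 in favour of root and 11 in favour of shoot, together 25.0% against 7.4% of all genes. The 11 hung on single libraries: the count was 7 without LR1, 5 without LR2, 4 without LR3, 4 without LR4, 4 without OR1, 7 without OR2, 6 without OR3, 5 without LS2, 18 without LS3, 4 without LS4, 7 without OS1, and 2 with voom.

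Laccase-5 of the A subgenome (Et_3A_025396) had 9.42, 9.37, 7.87 and 8.25 in low-calcium root and 8.31, 7.95, 8.91 and 6.63 in optimum-calcium root. Shoot values were 6.34, 7.74, 6.65 and 7.55 under low calcium and 1.56, 2.99, 2.13 and 1.83 under optimum calcium. Its shoot groups stood more than 3 log2 units apart and its root groups overlapped. The difference was -4.16 (SE 0.69, 95% interval -5.62 to -2.71, limma adjusted p 0.00209), with an adjusted p of 0.143 under voom. The B copy (Et_3B_029770) gave -2.54 (SE 0.67, limma adjusted p 0.0315) but did not pass with voom (adjusted p 0.248), with thinned reads (0.115) or without any 1 of LR2, LR3, LR4, OR1, OR2, OR3, LS2, LS4 and OS1 (adjusted p 0.0501 to 0.068). Laccase-4 passed in its A copy (Et_3A_025399, -3.66 (SE 0.84, limma adjusted p 0.0145)) and not in its B copy (Et_3B_029775, -2.61 (SE 0.81, limma adjusted p 0.0587)). Peroxidase 24-like (Et_10A_001744) gave -3.6 (SE 0.79, limma adjusted p 0.0113), and laccase-3 (Et_3A_026986), chosen after its values were seen, rose by 1.70 in root and by 4.09 in shoot. Its difference was -2.39 (SE 0.53, limma adjusted p 0.0113), with an adjusted p of 0.0621 under voom.

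The member that went the other way was peroxidase 70 (Et_1A_007725). It had 10.55, 10.47, 9.67 and 9.996 in low-calcium root and 8.27, 8.05, 8.62 and 7.24 in optimum-calcium root. Shoot libraries gave 9.20, 9.54, 9.21 and 8.98 under low calcium and 8.97, 9.15, 9.53 and 9.59 under optimum calcium. The root groups did not overlap and the shoot groups did. It rose in root by 2.13 (limma adjusted p 0.000744), and the difference was 2.20 (SE 0.37, 95% interval 1.42 to 2.99, limma adjusted p 0.0023).

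Oxidant production and removal differed in 8 of 55 genes, 14.55% against 7.4% of all genes. All 8 were in favour of shoot (6 to 9 when any 1 library was left out, 5 with voom). The list median was -0.42 against 0.07 over all genes. Respiratory burst oxidases are membrane NADPH oxidases that make superoxide outside the cell and bind calcium themselves. All 3 genes described as respiratory burst oxidase homolog protein B passed.

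In Et_10B_003796 the root values were 7.27, 6.68, 6.10 and 6.78 under low calcium and 7.96, 6.66, 7.97 and 8.38 under optimum calcium. Shoot values were 5.72, 6.59, 5.40 and 7.10 under low calcium and 0.98, 2.57, 2.46 and 1.44 under optimum calcium. The shoot groups stood far apart, and the root groups overlapped at OR2. Its responses were -1.03 (SE 0.46) in root and 4.34 (SE 0.46) in shoot, of which the root one did not pass (limma adjusted p 0.153), and the difference was -5.37 (SE 0.65, 95% interval -6.75 to -4.0, limma adjusted p 0.000379). The copies Et_3A_023793 and Et_3B_028206 had smaller and near-equal differences of -2.11 (SE 0.44, limma adjusted p 0.00854) and -1.99 (SE 0.40, limma adjusted p 0.00668).

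Glutathione S-transferase GSTF1 (Et_3A_023815), which couples glutathione to reactive compounds, had a difference of -1.86 (SE 0.34, limma adjusted p 0.00366). Catalase isozyme 1 (Et_2A_017514), which breaks down hydrogen peroxide, had one of -0.99 (SE 0.22, limma adjusted p 0.0124). The B copy of the catalase (Et_2B_021518) gave -0.70 and did not pass (limma adjusted p 0.104). Glutamate-cysteine ligase A, the first enzyme of glutathione synthesis, lies outside this word list and differed in both copies. The B copy (Et_9B_064610) fell in root, at 9.96, 9.73, 9.01 and 9.31 under low calcium against 10.88, 10.79, 11.14 and 10.83 under optimum calcium. In shoot it stood at 8.17 to 8.84 under low calcium and 8.14 to 8.63 under optimum calcium, and its difference was -1.43 (SE 0.28, limma adjusted p 0.00555). The A copy (Et_9A_062023) fell by 0.74 in root and rose by 0.56 in shoot (limma adjusted p 0.0138 and 0.00921). The difference amounted to -1.29 (SE 0.21, limma adjusted p 0.00203). All genes of this paragraph were chosen after their values were seen.

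Iron, zinc and other metals were represented by 34 genes, of which 7 passed, 20.59% against 7.4% of all genes. All 7 were in favour of shoot (5 to 8 when any 1 library was left out, 6 with voom). The list median was -0.39 against 0.07 over all genes. Heavy metal-associated isoprenylated plant proteins, small carriers with a metal-binding domain, made up 5 of the 7. Of the others, 1 was the carrier ZINC INDUCED FACILITATOR-LIKE 1 and 1 the metal-nicotianamine transporter YSL16.

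Heavy metal-associated isoprenylated plant protein 39 of the B subgenome (Et_4B_039347) had 9.76, 8.47, 8.26 and 8.59 in low-calcium root and 9.57, 9.40, 10.64 and 9.30 in optimum-calcium root. Its shoot values were 9.30, 9.69, 8.98 and 10.08 under low calcium and 4.96, 6.97, 5.03 and 6.18 under optimum calcium. Low-calcium shoots were all above optimum-calcium shoots, and the roots overlapped. The difference was -4.68 (SE 0.62, 95% interval -6.0 to -3.36, limma adjusted p 0.000468), and that of the A copy (Et_4A_032624) was -3.10 (SE 0.55, limma adjusted p 0.00316).

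ZINC INDUCED FACILITATOR-LIKE 1 (Et_6A_046738) differed through root. It had 7.06, 6.74, 6.39 and 6.55 in low-calcium root and 8.16, 8.0, 8.49 and 8.41 in optimum-calcium root. In shoot it gave 6.66, 6.38, 6.80 and 6.21 under low calcium and 6.47, 6.11, 5.76 and 6.27 under optimum calcium. The root groups stood clearly apart and the shoot groups overlapped. It fell by 1.58 in root (limma adjusted p 0.000744), its shoot response of 0.36 did not pass, and the difference was -1.94 (SE 0.28, 95% interval -2.53 to -1.35, limma adjusted p 0.000828). YSL16 (Et_3B_031448), which in rice carries metals bound to nicotianamine, likewise fell in root by 1.71, at 8.26 to 9.65 under low calcium against 10.14 to 11.13 under optimum calcium. Its shoot levels of 3.05 to 3.54 under low calcium and 3.15 to 3.77 under optimum calcium stood at few reads, and its difference of -1.65 (SE 0.41, limma adjusted p 0.0238) did not pass with voom (adjusted p 0.381), with thinned reads (0.144) or without any 1 of LR4, OR1 and OR2 (adjusted p 0.0537 to 0.0573). Both genes were chosen after their values were seen.

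Other transport passed in both directions. Among 88 carriers of potassium, nitrogen, phosphate, sulfate and water 2 passed in each direction, a share below the 7.4% of all genes, and 1 of those in favour of root is a peptide receptor matched by the word sulfated (Et_1A_007811, adjusted p 0.0494 by limma). The count in favour of root ranged between 0 and 13 when any 1 library was left out, the 13 without LS3, and was 5 without OS4. The water channel PIP2-6 (Et_5A_040899) had 11.84, 11.42, 10.70 and 10.93 in low-calcium root and 12.03, 12.22, 11.77 and 10.83 in optimum-calcium root. It had 6.67, 8.01, 7.21 and 7.39 in low-calcium shoot and 4.92, 5.15, 4.69 and 4.69 in optimum-calcium shoot. It rose in shoot with no overlap between the calcium levels, while its root groups overlapped, and the difference was -2.95 (SE 0.45, 95% interval -3.90 to -2.0, limma adjusted p 0.00122).

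Of 64 ABC transporters 1 passed in favour of root and 5 in favour of shoot, together 9.38% against the 7.4% of all genes. The 5 became 8 without LS1 or LS3, and the 1 became 5 without LS3. ABC transporter G family member 4-like (Et_2A_016645) gave -4.48 (SE 0.71, limma adjusted p 0.00162), from 5.86 to 8.01 in low-calcium shoot against 0.00 to 2.13 in optimum-calcium shoot. ABC transporter B family member 19 (Et_7B_054571), an auxin exporter in Arabidopsis, gave -2.74 (SE 0.63, limma adjusted p 0.0146).

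Sugar transport and sugar metabolism split evenly, with 4 of 42 genes in favour of each tissue, together 19.05% against 7.4% of all genes. Lists can share genes, and both copies of sucrose synthase 2, given above, are among the 4 in favour of shoot. The count in favour of root was 1 without LR1, LR2, LR4 or LS4, and 2 without OR2, LS1, OS1, OS2 or OS3. The sugar carrier SWEET4 (Et_1A_009171) held 0, 0, 0 and 3 reads in low-calcium root, 0, 1, 2 and 0 in optimum-calcium root, 113, 93, 61 and 183 in low-calcium shoot and 0, 2, 1 and 2 in optimum-calcium shoot. It was thus read in low-calcium shoot and hardly elsewhere, at a difference of -5.87 (SE 0.92, limma adjusted p 0.00157), which with an offset of 0.1 was larger, -7.59, but did not pass (adjusted p 0.133). In favour of root, starch synthase 4 (Et_1A_008733) gave 2.29 (SE 0.53, limma adjusted p 0.0149) and an adjusted p of 0.0607 with voom. Its mean was 1.38 reads in root and 93.4 in shoot. The large subunit of glucose-1-phosphate adenylyltransferase, which supplies the sugar donor for starch, lies outside this word list and was chosen after its values were seen. Its A copy (Et_4A_033729) gave 2.17 (SE 0.49, limma adjusted p 0.0128) and an adjusted p of 0.177 with voom. This copy fell in shoot, at 9.56 to 11.25 under low calcium against 11.35 to 12.09 under optimum calcium. The B copy (Et_4B_037873) gave 1.44 (limma adjusted p 0.0321).

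Calcium transport and sensing genes passed at shares near the 7.4% of all genes. Of 24 genes of calcium transport and mechanosensitive channels (8.33%), 1 passed in each direction, at a list median of 0.15. Of 53 genes of calcium sensing 3 passed (5.66%), all in favour of root, at a list median of 0.28 (2 to 4 in favour of root when any 1 library was left out, 2 with voom), against a median of 0.07 over all genes. In root 2 of the 53 rose and 2 fell (5.32% and 3.0% of all genes), and in shoot 2 rose and 23 fell (18.5% and 20.9% of all genes). The 23 became 17 with median-ratio size factors and 12 with scaling by the total.

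The vacuolar cation/proton exchanger 1a (Et_3B_028509), which in rice moves calcium into the vacuole, had 5.96, 6.03, 6.53 and 6.86 in low-calcium root and 7.01, 7.57, 6.14 and 7.79 in optimum-calcium root. Shoot values were 8.26, 9.48, 9.64 and 8.92 under low calcium and 11.26, 11.36, 11.84 and 12.04 under optimum calcium. All low-calcium shoots lay below all optimum-calcium shoots, and the root groups overlapped. It fell by 2.55 in shoot (limma adjusted p 7.14e-05), and its root response of -0.79 did not pass. The difference of 1.76 (SE 0.50, 95% interval 0.71 to 2.82, limma adjusted p 0.0426) was close to the threshold: it did not pass with scaling by the total (adjusted p 0.0655), with voom (0.0799), without the intensity trend (0.0523) or without any 1 of LR2, LR3, LR4, OR1, OR3, LS1, LS4, OS1, OS2, OS3 and OS4 (adjusted p 0.0511 to 0.0889).

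The mechanosensitive ion channel protein 6 (Et_1A_008386) went the other way. It ranged from 5.28 to 5.8 in low-calcium root, 5.40 to 6.22 in optimum-calcium root, 5.42 to 7.02 in low-calcium shoot and 4.18 to 5.34 in optimum-calcium shoot. It rose in shoot by 1.43, and its difference of -1.79 (SE 0.49, limma adjusted p 0.0359) did not pass with voom (adjusted p 0.0998), with thinned reads (0.079) or without any 1 of LR1, LR2, LR4, OR1, OR3, OR4, LS2 and OS1 (adjusted p 0.0593 to 0.0715).

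Calcium-dependent protein kinase 12 (Et_7B_054972), a kinase with its own calcium-binding domain, had 6.21, 5.86, 5.89 and 5.71 in low-calcium root and 5.5, 5.38, 5.33 and 5.04 in optimum-calcium root. It had 7.04, 6.33, 7.27 and 6.59 in low-calcium shoot and 8.21, 7.61, 8.39 and 7.43 in optimum-calcium shoot. Low-calcium libraries lay above their controls in root and below them in shoot, with no overlap in either. The fall of 1.10 in shoot passed (limma adjusted p 0.0027), the root response of 0.60 did not (limma adjusted p 0.118), and the difference was 1.71 (SE 0.34, 95% interval 0.99 to 2.43, limma adjusted p 0.00637).

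The calmodulin-like protein CML29 of the A subgenome (Et_2A_015077) moved in root. Root values were 7.67, 7.52, 7.45 and 7.67 under low calcium and 6.09, 6.66, 6.18 and 6.30 under optimum calcium. Shoot values were 9.15, 9.57, 10.02 and 9.03 under low calcium and 9.56, 9.40, 10.06 and 9.47 under optimum calcium. The root groups stood apart and the shoot groups overlapped, at a root rise of 1.27 (limma adjusted p 0.0038) and a difference of 1.45 (SE 0.29, 95% interval 0.84 to 2.06, limma adjusted p 0.00607). The B copy (Et_2B_022523) also rose in root, by 0.76, but its difference of 0.93 (SE 0.31, limma adjusted p 0.0789) did not pass. Calcium-dependent protein kinase 9 (Et_4A_033473) passed narrowly, at 1.05 (SE 0.30, limma adjusted p 0.0464), and in 8 of 25 alternatives. It did not pass with scaling by the total (adjusted p 0.111), under median-ratio size factors (0.0569), with the replicate term (0.0711), with voom (0.071) or without any 1 of LR1, LR2, LR4, OR1, OR2, OR3, OR4, LS1, LS2, LS4, OS1, OS2 and OS4 (adjusted p 0.0522 to 0.0979).

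Transcription factors of families with known miRNA targets numbered 99, of which 5 passed in favour of root and 8 in favour of shoot. Together they made up 13.13% of the list against 7.4% of all genes, at a list median of 0.00 against 0.07. The 8 stayed between 7 and 13, the 13 without LS3. The 5 became 1 without LR4 or OS1, 2 without LR1, LR2, LS4 or OS2, 3 without LR3, OR1, OR2, LS2 or OS3, and 8 without LS3 or OS4. The table holds no miRNA levels, so no miRNA is described here.

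Auxin response factor 6, which binds auxin-responsive promoters and is a target of miR167 in Arabidopsis and rice, differed in both copies. The B copy (Et_1B_012151) had 7.60, 7.67, 8.24 and 8.01 in low-calcium root and 8.74, 9.35, 7.51 and 9.39 in optimum-calcium root. In shoot it gave 7.73, 7.38, 6.94 and 8.24 under low calcium and 4.35, 5.38, 3.86 and 4.78 under optimum calcium. All low-calcium shoots were above all optimum-calcium shoots, and OR3 lay below the low-calcium roots, while the other 3 lay above them. The difference was -3.85 (SE 0.56, 95% interval -5.04 to -2.67, limma adjusted p 0.000964), and that of the A copy (Et_1A_009213) was -2.94 (SE 0.57, limma adjusted p 0.00561). Across the 41 auxin genes, which also include both copies of auxin response factor 6, 4 passed in each direction, together 19.51% against 7.4% of all genes. The count in favour of root was 1 to 9 when any 1 library was left out, the 9 without OS4 and the 1 without LR2, LR4 or OS1.

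NAC domain-containing protein 77 (Et_10A_001237) had 8.07, 7.95, 8.43 and 8.31 in low-calcium root and 7.62, 7.59, 8.15 and 7.85 in optimum-calcium root. Shoot values were 7.03, 8.27, 7.71 and 7.94 under low calcium and 3.55, 3.89, 2.73 and 5.06 under optimum calcium. The shoot groups stood apart by nearly 2 log2 units, and the difference was -3.54 (SE 0.52, 95% interval -4.64 to -2.43, limma adjusted p 0.000993). NAC domain-containing protein 92 (Et_7B_053956) gave -2.11 (SE 0.39, limma adjusted p 0.00394) in the same direction. NAC domain-containing protein 41 (Et_2A_016773) gave the opposite. It had 8.31, 8.10, 7.82 and 8.22 in low-calcium root, 6.76, 6.44, 7.21 and 6.68 in optimum-calcium root, and 8.86 to 9.59 in low-calcium against 9.16 to 9.36 in optimum-calcium shoot. It rose by 1.34 in root (limma adjusted p 0.00142) at a difference of 1.48 (SE 0.26, limma adjusted p 0.00272).

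Several homeobox genes are given by their values alone. HOX9, a class III homeodomain-leucine zipper protein in rice whose family is targeted by miR166, gave -1.99 (SE 0.32, limma adjusted p 0.0018) for its B copy (Et_1B_010799) and -1.41 (SE 0.29, limma adjusted p 0.00814) for its A copy (Et_1A_005917), and the related HOX29 (Et_3B_028879) -1.42 (SE 0.33, limma adjusted p 0.0154), the last not passing with voom (adjusted p 0.0678) or thinned reads (0.0511). The A copy of HOX29 (Et_3A_024161) gave -0.33 and did not pass (limma adjusted p 0.634). The B copy of HOX9 had 8.11, 7.5, 7.58 and 8.09 in low-calcium shoot, above the 5.25, 5.94, 4.92 and 5.73 of optimum-calcium shoot, and 6.14 to 6.51 in low-calcium against 5.68 to 6.17 in optimum-calcium root. WUSCHEL-related homeobox 11, which promotes crown roots in rice, rose in shoot in both copies. Its B copy (Et_5B_044797) had 4.71, 5.76, 5.08 and 5.10 in low-calcium shoot and 0.98, 0.99, 1.70 and 1.83 in optimum-calcium shoot, below the root range of 6.66 to 7.60 under low and 6.28 to 6.70 under optimum calcium. Differences were -3.15 (SE 0.42, limma adjusted p 0.000468) for the B copy and -2.36 (SE 0.55, limma adjusted p 0.0156) for the A copy (Et_5A_042924), which had an adjusted p of 0.071 with voom. These 6 genes were chosen after their values were seen.

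Among 17 MYB factors 2 passed, 11.76% against 7.4% of all genes. Both were described as MYBS3, a repressor in sugar starvation and cold in rice, and both were in favour of shoot. Et_9B_064158 had 9.03, 9.10, 9.05 and 9.21 in low-calcium root and 8.80, 8.66, 8.66 and 8.69 in optimum-calcium root. It had 9.02, 8.99, 8.70 and 8.62 in low-calcium shoot and 7.39, 7.68, 7.43 and 7.31 in optimum-calcium shoot. Low-calcium libraries were higher in both tissues with no overlap, and the gap was wider in shoot, at a difference of -0.99 (SE 0.17, 95% interval -1.35 to -0.63, limma adjusted p 0.00246). Et_3B_031150 gave -1.44 (SE 0.33, limma adjusted p 0.0148). Of 20 AP2/ERF and ethylene genes 1 passed, 5.0% against 7.4% of all genes. This was the ethylene response factor RAP2-13 (Et_4B_039855), at -2.55 (SE 0.55, limma adjusted p 0.0101), which did not pass with voom (adjusted p 0.0656).

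Receptor kinases formed the largest list, with 232 genes, and passed in both directions: 11 in favour of root and 21 in favour of shoot. Together these were 13.79% against 7.4% of all genes, at a list median of 0.10 against 0.07. The 21 became 12 without LR3 or LS4, 13 without LR4 or OR1, and 35 without LS3. The 11 became 7 without LR1, LR2 or LR4 and 17 without OS4. In favour of root and of shoot, scaling by the total gave 5 and 30 genes and voom 8 and 5.

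The receptor TDR, which in Arabidopsis perceives a peptide that maintains vascular stem cells, had a B copy (Et_8B_059519) with 8.73, 8.56, 7.77 and 8.33 in low-calcium root and 7.04, 6.88, 7.27 and 6.79 in optimum-calcium root. Its shoot values were 6.06, 5.40, 4.73 and 7.20 under low calcium and 0.98, 0.00, 0.00 and 0.00 under optimum calcium, the last from 1, 0, 0 and 0 reads. Low-calcium libraries were the higher ones in both tissues, without overlap, and the difference was -4.25 (SE 0.59, 95% interval -5.5 to -3.01, limma adjusted p 0.000655). Its A copy (Et_8A_057158) gave -3.28 (SE 0.79, limma adjusted p 0.02) and an adjusted p of 0.0536 with voom. In favour of root, the wall-associated receptor kinase-like 16 (Et_3B_028075) rose in root, at 6.0, 6.28, 5.89 and 6.44 under low calcium against 4.38, 3.92, 4.80 and 2.75 under optimum calcium. Its shoot groups overlapped, at 9.58 to 10.20 under low and 9.20 to 10.50 under optimum calcium, and the difference was 2.28 (SE 0.50, limma adjusted p 0.011). The kinase HSL1 (Et_3B_031444) gave 0.96 (SE 0.22, limma adjusted p 0.0124), which did not pass with scaling by the total (adjusted p 0.0627), and an LRR receptor-like kinase (Et_2B_020561), which fell in shoot, gave 1.77 (SE 0.39, limma adjusted p 0.011), with an adjusted p of 0.0764 with voom. The last 3 genes were chosen after their values were seen.

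**Figure D3:**
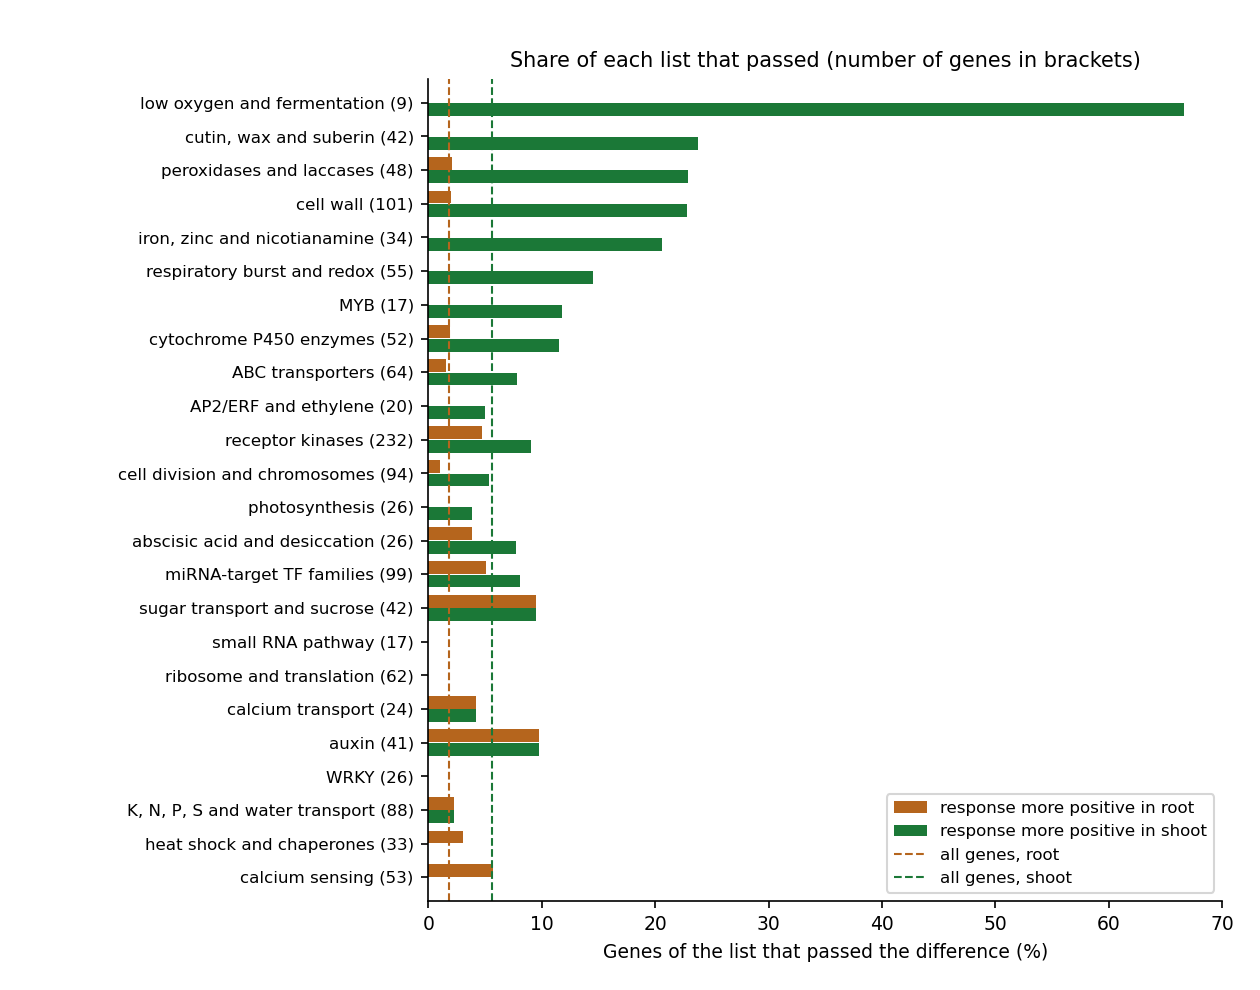
Share of the genes of each of 24 word lists (y axis, number of genes in brackets) whose responses differed (x axis, percent), in favour of root and in favour of shoot; dashed lines give the shares over all 5824 genes, 1.82% and 5.58%. Low oxygen, cutin and wax, peroxidases and laccases, cell wall and metals stand furthest above the shoot line, and auxin and sugar genes are among the lists above both lines.

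The 106 genes in favour of root were led, by p, by genes without a common list. The disease resistance protein RPP13-like protein 3 (Et_5A_041487), of a family of intracellular immune receptors, had 6.74, 6.87, 6.89 and 7.18 in low-calcium root and 6.06, 5.62, 5.52 and 6.05 in optimum-calcium root. Its shoot values were 8.97, 8.97, 9.47 and 8.15 under low calcium and 10.15, 9.92, 10.40 and 9.39 under optimum calcium. The root groups did not overlap, and in shoot 1 low-calcium library reached the optimum-calcium range. It rose by 1.11 in root and fell by 1.07 in shoot (limma adjusted p 0.0204 and 0.00448), a difference of 2.18 (SE 0.36, 95% interval 1.42 to 2.93, limma adjusted p 0.00204). RGA3, another putative resistance protein (Et_1B_011807), gave 1.83 (SE 0.31, limma adjusted p 0.00241), with a fall of 1.15 in shoot.

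TGAL4 (Et_6B_048947), a bZIP transcription factor of the TGA type, differed through shoot. Root values were 8.53, 8.65, 8.34 and 8.70 under low calcium and 8.46, 8.37, 8.45 and 8.23 under optimum calcium. Shoot values were 5.08, 4.29, 4.86 and 4.05 under low calcium and 6.30, 6.01, 6.22 and 5.78 under optimum calcium. The roots overlapped, all low-calcium shoots lay below all optimum-calcium shoots, and the difference was 1.68 (SE 0.29, 95% interval 1.07 to 2.29, limma adjusted p 0.00246). GLK2 (Et_3A_023610), of a family that promotes chloroplast development, differed through root. It rose there by 1.30, at 3.87, 4.14, 3.34 and 3.85 under low calcium against 2.48, 2.26, 2.70 and 2.56 under optimum calcium, on a mean of 9.12 reads per root library. In shoot it stood at 10.36 to 11.15 under low and 10.82 to 11.23 under optimum calcium, on a mean of 1834.1 reads per shoot library. The difference was 1.63 (SE 0.28, limma adjusted p 0.00241), and the adjusted p with voom was 0.0938. Whether shoot reads add to its root values was not tested.

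An anthocyanin 5-aromatic acyltransferase (Et_2B_019258), which adds acyl groups to anthocyanins, rose in root, at 6.30 to 6.68 under low calcium against 4.85 to 5.36 under optimum calcium, at a difference of 1.55 (SE 0.28, limma adjusted p 0.00336). Its A copy (Et_2A_016399) gave 1.05 (SE 0.32, limma adjusted p 0.0561) and did not pass. Flavonoid 3'-monooxygenase CYP75B3 (Et_1A_008959), which adds a hydroxyl group to flavonoids, rose in shoot, at 8.53 to 9.72 under low calcium against 4.82 to 6.61 under optimum calcium, at a difference of -3.72 (SE 0.66, limma adjusted p 0.00314).

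**Figure D4:**
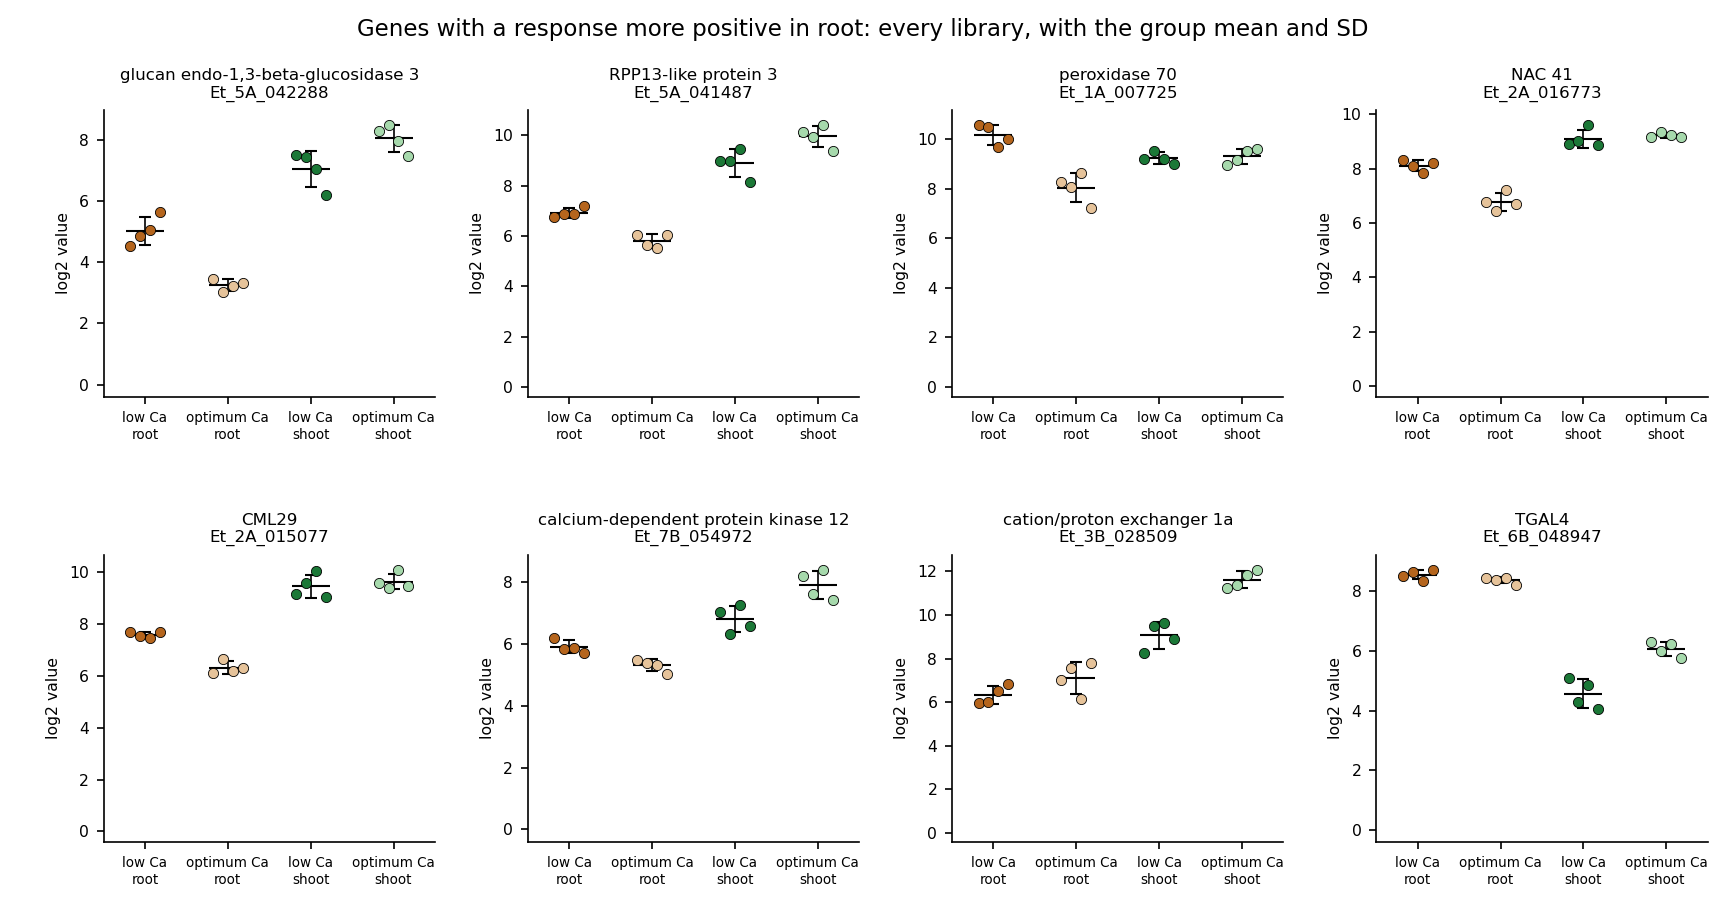
Log2 values (y axis) of 8 genes with the more positive response in root in every library, by group; points are libraries, bars the group mean with its SD (n = 4). Peroxidase 70, NAC 41 and CML29 are higher in low-calcium than in optimum-calcium root and overlap in shoot, whereas exchanger 1a and TGAL4 are lower in low-calcium than in optimum-calcium shoot and overlap in root.

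Opposite calls in the tissues, 16 in all, were made for 10 genes lower in root and higher in shoot and 6 genes higher in root and lower in shoot. Their number rested on single libraries: it was 4 without LR2 or LR4, 5 without LR1 or OR2, 6 without OR4, 7 without OR1, 8 without OS2, 10 without OS1, 26 without OR3 and 28 without OS4. Both median-ratio size factors and thinned reads gave 10, and array weights gave 25. Alcohol dehydrogenase 2, the hemoglobin and glutamate-cysteine ligase A, given above, belong to the first kind.

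A gene without a description (Et_2B_021274) had the second smallest p of the first kind. It had 8.93, 8.76, 8.93 and 8.81 in low-calcium root and 10.17, 10.15, 9.95 and 10.32 in optimum-calcium root. Shoot values were 7.52, 7.87, 6.89 and 8.42 under low calcium and 6.03, 5.77, 5.82 and 6.28 under optimum calcium. Neither tissue showed overlap, and the difference was -2.99 (SE 0.33, 95% interval -3.69 to -2.30, limma adjusted p 0.000181). A second flavonoid 3'-monooxygenase (Et_2A_016216) fell by 1.96 in root and rose by 1.93 in shoot, the rise on 2, 6, 1 and 5 reads in low-calcium and 1, 0, 0 and 0 in optimum-calcium shoot. Its difference was -3.89 (SE 0.82, limma adjusted p 0.00951), with an adjusted p of 0.0701 for thinned reads.

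The other 5 of the first kind had differences between -1.99 and -1.05. A nitrile-specifier protein 5 gene (Et_2A_015488) fell by 0.95 in root and rose by 1.04 in shoot, at -1.99 (SE 0.37, limma adjusted p 0.00421). Its B copy (Et_2B_019642) gave -2.60 (SE 0.52, limma adjusted p 0.00616), through a rise of 1.93 in shoot. A second gene without a description (Et_10A_001333) gave -1.79 (SE 0.28, limma adjusted p 0.00157), and the resistance protein RXW24L (Et_9A_062463) -1.57 (SE 0.33, limma adjusted p 0.00874). Gamma-aminobutyrate transaminase 1 (Et_7B_054709), which breaks down the stress metabolite GABA, gave -1.31 (SE 0.23, limma adjusted p 0.00316), from 9.64 to 9.97 in low-calcium root, 10.29 to 10.50 in optimum-calcium root, 8.18 to 8.51 in low-calcium shoot and 7.31 to 8.17 in optimum-calcium shoot. Its A copy (Et_7A_052072) gave -0.55 and did not pass (limma adjusted p 0.326). A gene described as paladin (Et_4B_037230) gave -1.05 (SE 0.19, limma adjusted p 0.00366). The transaminase copies and paladin were chosen after their values were seen.

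Of the 6 genes higher in root and lower in shoot, the glucanase Et_5A_042288 and the RPP13-like gene have been given. Ferrochelatase-2 (Et_1A_005519), which inserts iron to make haem in plastids, had 5.61, 5.61, 5.26 and 5.36 in low-calcium root and 4.75, 4.60, 4.65 and 4.68 in optimum-calcium root. It had 9.63, 9.39, 10.12 and 8.83 in low-calcium shoot and 10.76, 10.39, 10.90 and 10.08 in optimum-calcium shoot. The roots stood apart, the shoots overlapped, and the difference was 1.83 (SE 0.32, 95% interval 1.15 to 2.50, limma adjusted p 0.00295), with an adjusted p of 0.0602 under voom. Its B copy (Et_1B_010410) gave 0.63 (SE 0.37, limma adjusted p 0.345) and did not pass.

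The transcription factor bHLH157 (Et_7A_052290) had 7.03, 6.85, 7.18 and 6.73 in low-calcium root and 6.37, 6.35, 6.44 and 6.44 in optimum-calcium root. Shoot values were 5.94, 5.99, 5.89 and 5.79 under low calcium and 6.90, 6.31, 6.82 and 6.68 under optimum calcium. The groups of both tissues stood apart, in opposite directions, at a difference of 1.32 (SE 0.22, 95% interval 0.85 to 1.79, limma adjusted p 0.0023). Its B copy (Et_7B_055848) gave 0.99 (SE 0.29, limma adjusted p 0.0508), just short of passing. Glycerate dehydrogenase (Et_6B_049049), an enzyme of photorespiration, gave 1.99 (SE 0.43, limma adjusted p 0.0105) and an adjusted p of 0.207 with voom. It had a mean of 4 reads per root library and 911.4 per shoot library. The zinc finger protein indeterminate-domain 4 (Et_1A_008361), chosen after its values were seen, gave 1.05 (SE 0.23, limma adjusted p 0.0102).

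Some lists did not stand out. None of the 26 WRKY factors, 62 ribosome and translation genes or 17 small RNA pathway genes passed the difference by limma or by voom, although 5, 8 and 4 of them had an unadjusted p under 0.05. In favour of shoot, 2 WRKY factors passed without LS1 and 2 ribosome and translation genes without LS3. In the last list the chromosome 7 copies of argonaute 1B, of the family that uses miRNAs to guide cleavage, fell in shoot, with differences of 0.57 (SE 0.34, limma adjusted p 0.344) in Et_7A_052294 and 0.58 (SE 0.31, limma adjusted p 0.295) in Et_7B_054938 that did not pass. In Et_7A_052294 the ranges were 10.55 to 11.20 in low-calcium root, 10.89 to 11.59 in optimum-calcium root, 9.82 to 10.96 in low-calcium shoot and 11.19 to 11.54 in optimum-calcium shoot. Of 94 genes of cell division and chromosomes 1 passed in favour of root and 5 in favour of shoot, shares near those of all genes, and the 5 became 2 without OR1 and 3 without LR3 or LS4. Among 26 photosynthesis genes 1 passed, 3.85% against 7.4% of all genes. It was phosphoenolpyruvate carboxylase 1 (Et_1B_014155), which fixes bicarbonate, at -1.72 (SE 0.43, limma adjusted p 0.0241). It did not pass without LR3 (adjusted p 0.052) or LS4 (0.0556). Its mean level was higher in root (11.43 under low, 12.18 under optimum calcium) than in shoot (9.89 and 8.92). The A copy (Et_1A_007735) gave -1.04 (SE 0.38, limma adjusted p 0.111) and did not pass. In favour of root, where none passed, 5 photosynthesis genes did without LS3, 2 without OS4 and 1 without OR4 or OS3. Heat shock proteins and chaperones (33 genes) had 1 gene in favour of root, 3.03% against 7.4% of all genes.

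Copies from the A and B subgenomes could be compared in 1427 pairs, chosen as genes with the same description and chromosome number but the other letter, 1 on each side. Both copies passed in 52 pairs, 48 in favour of shoot, 3 in favour of root and 1 with opposite directions, and 1 copy passed in 90 pairs. The 52 became 24 without LR4, 26 without OR1, 27 without LR2, 28 without LS4, 29 without LR3 or OR2, 30 without OS1, 33 without OS3 and 84 without LS3. The 90 became 60 without LR2, LR4 or OR1, 51 without LS4 and 141 without LS3. With voom they were 15 and 46. In 83 of these 90 the other copy had the same sign, and in the other 7 it had the opposite sign at an unadjusted p of 0.05 or more. Across the 1427 pairs the differences of A and B copies had a Pearson r of 0.792, as a description, since copies with similar sequence can share reads and genes are not independent replicates. The absolute gap between copies (log2) had a median of 0.24 over all pairs and of 0.59 over pairs in which 1 or both copies passed.

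The pair with opposite directions was aminopeptidase M1-C, a gene chosen after its values were seen. Its B copy (Et_2B_020537) had 7.27, 7.33, 7.67 and 7.26 in low-calcium root and 7.49, 7.47, 7.41 and 7.53 in optimum-calcium root. In shoot the B copy gave 6.22, 6.45, 5.83 and 7.04 under low calcium and 3.77, 4.31, 4.41 and 3.12 under optimum calcium, a rise without overlap. The A copy (Et_2A_016446) fell in shoot, to 10.22, 10.10, 10.38 and 10.07 under low calcium, against 10.86, 10.76, 10.74 and 10.57 under optimum calcium. Differences were -2.58 (SE 0.39, limma adjusted p 0.00122) for the B copy and 0.77 (SE 0.21, limma adjusted p 0.0386) for the A copy, and that of the A copy did not pass with scaling by the total (adjusted p 0.156), the replicate term (0.0671), voom (0.0652) or without any 1 of LR1, LR2, LR3, LR4, OR1, OR2, OR3, LS1, LS2, LS4, OS1, OS2 and OS3 (adjusted p 0.0528 to 0.0828).

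Both phosphatidylinositol 4-kinase gamma 5 copies moved alike, with differences of -1.98 (SE 0.25, limma adjusted p 0.000444) in Et_8B_060644 and -2.0 (SE 0.30, limma adjusted p 0.00112) in Et_8A_058306. The largest gaps between copies lay elsewhere and were picked after seeing the values. DNA (cytosine-5)-methyltransferase 1B, which copies DNA methylation at replication, gave -2.83 (SE 0.59, limma adjusted p 0.00894) in its A copy (Et_5A_042702), at 2.82 to 5.64 in low-calcium shoot and 1.56 to 2.31 in optimum-calcium shoot. Its B copy (Et_5B_045449) gave 0.15 (SE 0.44, limma adjusted p 0.875), which turned to -0.04 with scaling by the total, at 3.54 to 3.85 in low-calcium shoot and 3.77 to 5.17 in optimum-calcium shoot. The SMAX1-like gene, of a family that represses karrikin responses in Arabidopsis, gave -2.38 (SE 0.46, limma adjusted p 0.00566) in its B copy (Et_1B_011047), which had an adjusted p of 0.0656 with voom, and 0.38 (SE 0.40, limma adjusted p 0.632) in its A copy (Et_1A_006190). No test of these gaps between copies was made.

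**Figure D5:**
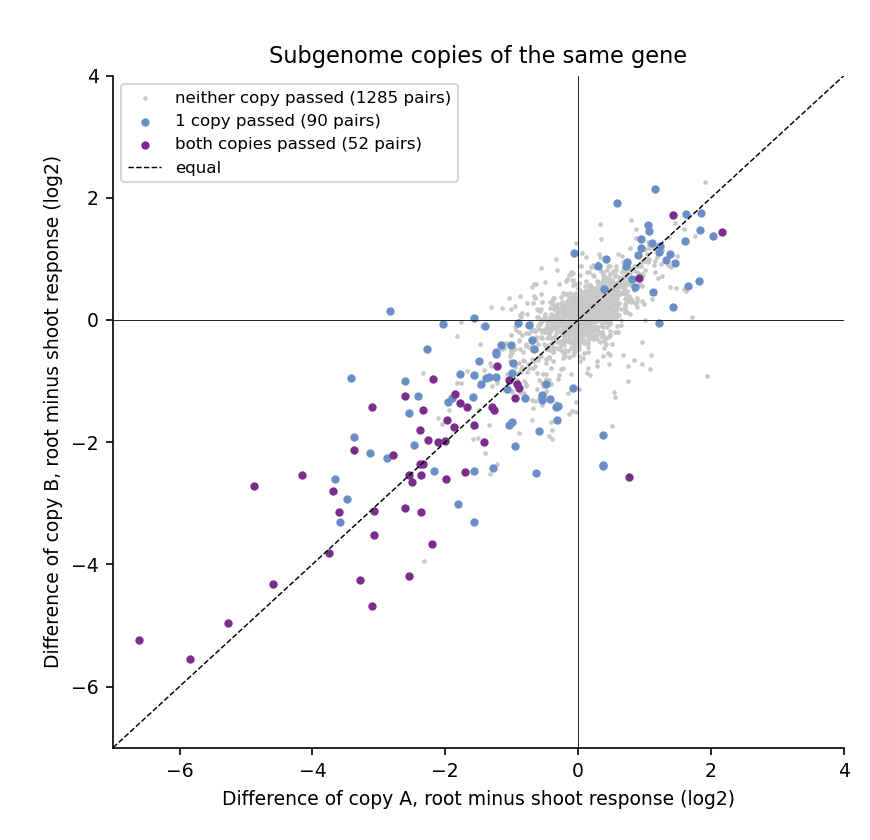
Difference between the root and shoot responses (log2) of the A copy (x axis) and the B copy (y axis) of 1427 gene pairs, coloured by whether neither, 1 or both copies passed; the dashed line marks equal values. Most of the 52 pairs with both copies passed lie at lower left near the line, and the pair at lower right with both copies passed is aminopeptidase M1-C.

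Few reads limit some of these values. Of the 325 genes in favour of shoot, 41 had a mean log2 value under 2 in optimum-calcium shoot, against 198 of all 5824 genes, and the offset of 1 makes their shoot response smaller than the change in reads. Among the 431 genes, 23 had a mean under 10 reads in root and 7 in shoot, where 208 and 206 of all genes did. The share of calls in favour of root was 24.6% on the deposited scale and 14.1% with scaling by the total, which moved the median difference of all genes by -0.20.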

How the data were processed

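The gene table and its labels cover 16 tef libraries, 4 of each tissue and calcium level. The deposited values are log2 per the file headers, and the low values of every library step in whole reads: they equal log2 of scaled reads plus 1, and dividing by the value of 1 read gave whole reads for 100% of values within a tolerance of 0.1. For aligner, genome build and annotation, the sources used here give no name. Gene IDs carry a chromosome number and a subgenome letter, positions are not used here, and levels are not per gene length, so levels are not compared between genes. The 16 per-sample length columns were not used. Header letters mark the calcium level with L and H, of which H is not explained, and low-calcium shoot replicate 4 was placed by its source name because its title names both tissues.

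All 4 groups entered 1 limma fit (intensity trend, no replicate term) on the deposited log2 values, with the difference of responses as a contrast and Benjamini-Hochberg adjustment over all 5824 genes at 0.05. The fit was tested on simulated data. As alternatives served scaling by the total, median-ratio size factors, a minimum of 10 reads in both tissues, an offset of 0.1, the replicate number as a block, voom, array weights, no trend, thinned reads and each library left out. Deviations of same-numbered libraries from their group means correlated between -0.405 and 0.302. Libraries of unlike number were not compared, so this does not tell whether a number marks a pairing. Named genes are drawn from the 10 with the smallest p in each direction, up to 12 with opposite calls by size, up to 4 members of each list that passed, by size (where none passed, the 2 with the most reads), and the other copies of these, and genes outside this rule are said to be so. Genes and lists were chosen with earlier results of these data known. Software was limma 3.58.1 in R 4.3.3, and matplotlib 3.10.9, scipy 1.17.1, pandas 2.3.3 and numpy 2.4.6 in Python 3.11.15.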

Additional observations from a re-analysis of the deposited data

Results flagged for a closer look

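The responses of root and shoot differed, by the test of the difference itself in limma, for 431 genes. Among the 16 with opposite calls, the genes lower in root and higher in shoot were the hemoglobin Et_1A_007077 (-4.48), alcohol dehydrogenase 2 Et_6A_047661 (-4.30), flavonoid 3'-monooxygenase Et_2A_016216 (-3.89), the undescribed Et_2B_021274 (-2.99) and Et_10A_001333 (-1.79), nitrile-specifier protein 5 Et_2A_015488 (-1.99), RXW24L Et_9A_062463 (-1.57), GABA transaminase Et_7B_054709 (-1.31), glutamate-cysteine ligase Et_9A_062023 (-1.29) and paladin Et_4B_037230 (-1.05). The genes higher in root and lower in shoot were glucan endo-1,3-beta-glucosidase 3 Et_5A_042288 (2.77), RPP13-like protein 3 Et_5A_041487 (2.18), glycerate dehydrogenase Et_6B_049049 (1.99), ferrochelatase-2 Et_1A_005519 (1.83), bHLH157 Et_7A_052290 (1.32) and indeterminate-domain 4 Et_1A_008361 (1.05). Each value is a log2 difference of root minus shoot.

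Single libraries stood apart from the other 3 of their group in 20 of the 444 groups of 4 libraries checked over 111 genes, and chance alone flags about 1 in 20 groups. In low-calcium root, replicate 1 stood apart for Et_7B_055862 at 4.98 and Et_4A_033729 at 3.49, replicate 3 for Et_1A_007077 at 6.98, Et_2B_020537 at 7.67 and Et_3B_031444 at 10.31, and replicate 4 for Et_1A_009171 at 2.12 and Et_5A_042702 at 6.28. In optimum-calcium root, replicate 3 stood apart for Et_3B_028206 at 10.72 and Et_3B_031150 at 7.91, and replicate 4 for Et_10B_002726 at 8.13 and Et_7B_054571 at 7.95. In low-calcium shoot, replicate 3 stood apart for Et_2B_019607 at 6.98 and Et_7B_055848 at 7.33. In optimum-calcium shoot, replicate 1 stood apart for Et_6A_047661 at 6.84 and for Et_8B_059519 and Et_2A_016216 at 0.98 each, where the other 3 libraries held no read. There too, replicate 3 stood apart for Et_2B_022523 at 10.34 and Et_1A_006190 at 6.22, and replicate 4 for Et_2A_017514 at 9.68 and Et_2B_020561 at 8.88.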

How the results depend on the processing

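The 431 differing genes became 196 with voom, 195 of them among the 431, and 261 to 704 when any 1 library was left out. They became 419 with median-ratio size factors, 495 with scaling by the total, 397 of 5410 genes with at least 10 reads in both tissues, 413 with an offset of 0.1, 473 with array weights, 418 without the trend and 391 with thinned reads. With the replicate block the count was 426, 126 in favour of root and 300 in favour of shoot. Same-numbered libraries correlated between -0.405 and 0.302 in their deviations from the group means, which does not tell whether a number marks a pairing. The 485 genes of the root response became 872 with array weights, 228 with a change of at least 1 as well, and 66 to 816 when any 1 library was left out. The 2292 of the shoot response became 962 with a change of at least 1 as well. The cause of these shifts was not tested.

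Over 111 of the named genes, 2626 values under an alternative kept direction and side of the threshold, 114 no longer passed, 16 newly passed and 7 changed sign. The sign changes were in small differences: Et_5B_045449 gave -0.0401 with scaling by the total, and -0.0885 (without OS4) to 0.3782 (without OS1) when any 1 library was left out, with -0.0522 without OR1. Et_1A_008504 gave -0.1144 with scaling by the total. Et_1B_013326 gave -0.0795 with scaling by the total, -0.0919 with thinned reads and -0.0463 (without OR4) to 0.2626 (without OR3) when any 1 library was left out. Low-calcium root, at 1.20 to 2.02 megareads, was the shallowest group and limits the root responses most for genes of few reads.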
